A study of Mus musculus with 12 samples.

Results

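Airway mucus is a gel of large glycoproteins that traps inhaled particles and is moved out of the lung by cilia. Goblet cells and mucous secretory cells make it, and in allergic airways the cytokine interleukin 13, acting through STAT6, drives more secretory cells into this state. The 10 genes described here are the gel-forming mucins Muc5ac and Muc5b, the transcription factors Spdef and Foxa3, and 6 genes for proteins that fold, modify or accompany mucins. Those 6 are Agr2, Clca1, Itln1, Fcgbp, Tff2 and Gcnt3. They were chosen by gene symbol, and all 10 were found among the 49585 genes of the deposited table.

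The levels come from poly-A RNA sequencing of whole mouse lung. The asthma study set mice without Rgs4 (KO), whose product shortens G protein signals, beside wild-type (WT) mice. Each genotype was given either the mould Aspergillus fumigatus (Af) or phosphate-buffered saline (PBS). The 4 groups are KO_Af, KO_PBS, WT_Af and WT_PBS, with 3 libraries each, and the labels name Balb/cJ for all of them. The sources used here do not give how the knockout allele was made, the animals' age or sex, or the form, route, dose and timing of Af. Libraries carry sample numbers that run in blocks of 3 by group, so anything that followed this order cannot be told apart from the groups. The labels do not say whether each library is a separate animal, so p-values measure only the spread between these samples, which may be technical.

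Rgs4 (ENSMUSG00000038530) checked the labels. Its level was 1.14, 1.47 and 0.848 CPM (reads set relative to library size, scaled by the authors) in KO_Af lungs, against 48.8, 42.7 and 43.8 CPM in WT_Af lungs. It was 1.10, 1.003 and 0.571 CPM in KO_PBS lungs, against 25.8, 20.7 and 22.3 CPM in WT_PBS lungs. All 6 KO libraries lay below all 6 WT libraries. Totals ranged from 20708884 to 30229446 reads per library. In 2 libraries RNA of squamous epithelium stood out: the summed level of 8 squamous keratin and junction markers was 289.9 CPM in KO_Af 12 and 585.7 CPM in WT_PBS 17, and at most 5.04 CPM in the other 10 libraries. Without both of these libraries the counts of members called in every comparison below were the same. Stomach also expresses Tff2 and Agr2, and the summed level of 7 gastric markers was 1.67 to 2.71 CPM over all libraries.

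The members lie on 6 chromosomes (GRCm38 coordinates). Muc5ac (ENSMUSG00000037974) lies at chr7:141788972-141819231 and Muc5b (ENSMUSG00000066108) at chr7:141839070-141873084, both on the plus strand and 19.8 kb apart. Fcgbp lies on the same chromosome at chr7:28071236-28120862 (plus strand) and Foxa3 at chr7:19013284-19023538 (minus strand). Spdef, at chr17:27714352-27728955, shares chromosome 17 with Tff2, at chr17:31141049-31144282, both on the minus strand. Agr2 lies at chr12:35992907-36004087 (plus strand), Clca1 at chr3:145003817-145032776 (minus strand) and Gcnt3 at chr9:70031496-70038088 (minus strand). Itln1 lies at chr1:171518122-171535294 (minus strand), 1770 kb from Rgs4 on the same chromosome. A sequence difference carried along with the Rgs4 allele therefore cannot be told apart from the loss of Rgs4 for Itln1. No other annotated gene shares exon bases with a member. BALB/c mice also carry Itln2, a close relative of Itln1 that the reference strain lacks, and its reads could have been counted to Itln1.

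Promoter sequence from RefSeq (GRCm38.p6) was matched by symbol for 5 members, Spdef, Foxa3, Agr2, Itln1 and Fcgbp. The 250 bases before the start are printed for the pair of transcription factors and for Itln1, which rose more than either. All 3 lie on the minus strand, and each is read 5′ to 3′ towards the gene. The windows are chr17:27728952-27729201 for Spdef, chr7:19023540-19023789 for Foxa3 and chr1:171535295-171535544 for Itln1. Capitals mark a forkhead word in Spdef and a TATA box in Foxa3.

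Spdef promoter: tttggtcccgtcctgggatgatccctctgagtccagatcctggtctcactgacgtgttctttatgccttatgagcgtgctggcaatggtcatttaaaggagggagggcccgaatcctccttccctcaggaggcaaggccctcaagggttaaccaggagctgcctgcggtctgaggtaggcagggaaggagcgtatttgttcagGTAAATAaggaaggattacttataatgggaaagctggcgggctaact

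Foxa3 promoter: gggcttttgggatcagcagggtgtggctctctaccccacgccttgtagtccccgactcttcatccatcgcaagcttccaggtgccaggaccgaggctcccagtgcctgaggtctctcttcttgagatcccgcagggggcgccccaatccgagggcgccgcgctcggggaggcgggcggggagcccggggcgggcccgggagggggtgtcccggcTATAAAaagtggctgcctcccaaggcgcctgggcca

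Itln1 promoter: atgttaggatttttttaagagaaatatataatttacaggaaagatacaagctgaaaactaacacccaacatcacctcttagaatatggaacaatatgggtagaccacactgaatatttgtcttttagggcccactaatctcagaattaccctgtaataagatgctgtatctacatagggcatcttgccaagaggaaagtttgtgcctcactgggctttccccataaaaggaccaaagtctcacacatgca

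The words were searched on both strands. The forkhead element was searched as TGTTTAC, as TATTTAC, as TGTTTGC and as TATTTGC. Its one match is GTAAATA, the reverse complement of TATTTAC, at bases -47 to -41 before the Spdef start, and 11.9% of 32851 promoter windows of the same length hold a forkhead word. TATAAA was found at bases -36 to -31 before the Foxa3 start, and 12.4% of windows hold it. TTC and GAA with 4 bases between them, the spacing that STAT6 favours, were found in none of the 5 members' windows, and 5.85% of all windows hold that word. With 3 bases between them they were also found in none, and 7.02% of all windows hold that word. The word GGAT, the core that SPDEF binds, occurred 5 times for Spdef, 4 times for Foxa3, 2 times each for Agr2 and Fcgbp and 1 time for Itln1. It is common, since 74.1% of windows hold it. A match is a string of letters and not a bound site.

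**Figure D1:**
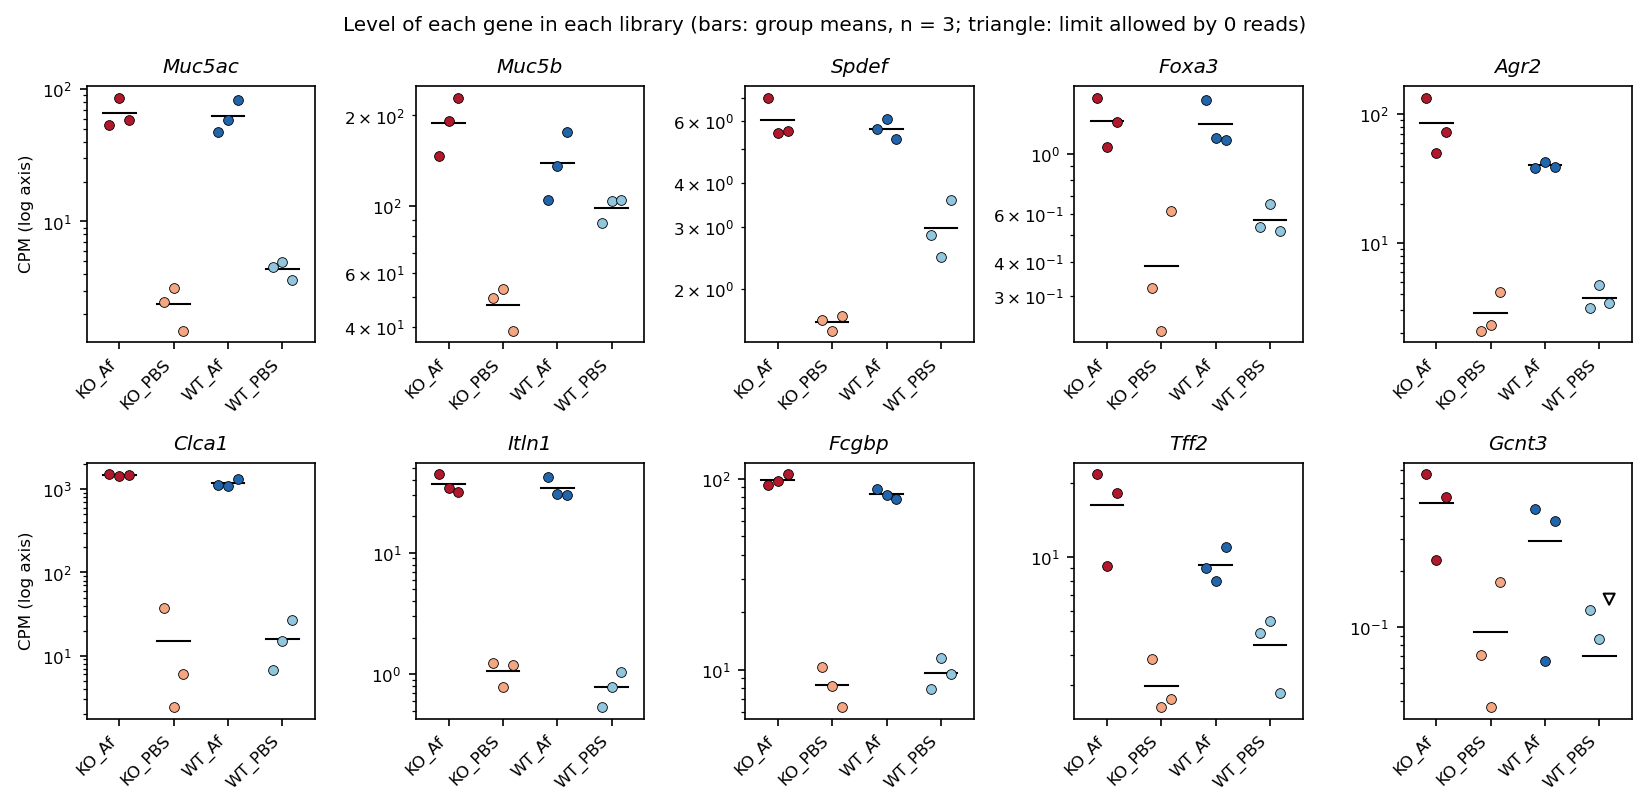
Level of each of the 10 members in each library, in CPM on a log axis that differs between panels. Points are libraries, bars are group means (n = 3), and the open triangle is the level that 0 Gcnt3 reads allow (0.142 CPM). In KO lungs the 3 Af libraries lie above the 3 PBS libraries in all 10 panels.

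What exposure did was read first in the KO lungs. All 9 members that could be tested rose, where 28.7% of 16126 tested genes rose and 29.2% fell. The increases ran from log2 1.06 for Foxa3 to log2 7.38 for Clca1, on the log2(CPM + 0.5) scale, with a median of 3.51 against -0.02 over all tested genes. Foxa3 met the filter of 1 CPM in 3 libraries only through the Af libraries, so it had to be higher under Af, and without it 8 of 8 rose in KO lungs and 7 of 8 in WT lungs. In WT lungs 8 of the 9 rose, where 26.2% of all tested genes rose and 25.6% fell, with a median of 3.06 against -0.02. Muc5b was the member that did not pass the test in WT lungs. All 3 Af libraries lay above all 3 PBS libraries for all 10 members in KO lungs and for 9 in WT lungs, where 31.1% and 32.7% of all tested genes did so in KO and in WT lungs. The test was limma over all tested genes, with Benjamini-Hochberg adjusted p under 0.05. In whole lung, a change in the number of cells of a type and a change in RNA per cell cannot be told apart.

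Muc5ac, the inducible gel-forming mucin, had 53.9, 86.6 and 58.9 CPM in KO_Af lungs, against 2.45, 3.12 and 1.49 CPM in KO_PBS lungs. It had 47.4, 58.3 and 83.3 CPM in WT_Af lungs, against 4.55, 4.90 and 3.59 CPM in WT_PBS lungs. The exposed libraries lay far above the unexposed ones in both genotypes, with no overlap. The increase was log2 4.56 ± 0.26 (SE, n = 3 each, limma adjusted p = 1.87e-07) in KO lungs and log2 3.68 ± 0.26 (limma adjusted p = 1.21e-06) in WT lungs.

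Muc5b, the mucin that healthy airways need for clearance, had 147, 192 and 229 CPM in KO_Af lungs, against 49.6, 53.4 and 38.8 CPM in KO_PBS lungs. It had 105, 136 and 176 CPM in WT_Af lungs, against 87.8, 104 and 105 CPM in WT_PBS lungs. The KO groups stood well apart, while the lowest WT_Af library was barely above the highest WT_PBS library. It rose by log2 1.98 ± 0.20 (limma adjusted p = 9.38e-06) in KO lungs. In WT lungs the difference was log2 0.47 ± 0.20 (limma adjusted p = 0.0683). That value passed the threshold with edgeR (adjusted p = 0.0496), with DESeq2 (0.0318) and in limma without WT_Af 18 (log2 0.65, 0.0196).

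The balance of the gel-forming mucins shifted with exposure. Per 100 CPM of Muc5b there were 36.6, 45.1 and 25.7 CPM of Muc5ac in KO_Af lungs, against 4.94, 5.85 and 3.85 in KO_PBS lungs. There were 45.03, 42.8 and 47.3 in WT_Af lungs, against 5.18, 4.71 and 3.43 in WT_PBS lungs. Every exposed library lay above every unexposed one. The Af minus PBS difference in the log2 ratio, averaged over the genotypes, was 2.90 (2.58 in KO and 3.22 in WT lungs). A two-sided exact permutation test within genotype gave p = 0.005, the smallest its 400 regroupings can give. Between genotypes the mean difference in the log2 ratio, KO minus WT, was -0.05 (exact permutation test within exposure, two-sided, p = 0.80). It is the mean of -0.37 under Af and 0.27 under PBS, which have opposite signs. Within either genotype an exact permutation test of 3 libraries against 3 cannot give less than p = 0.1.

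**Figure D2:**
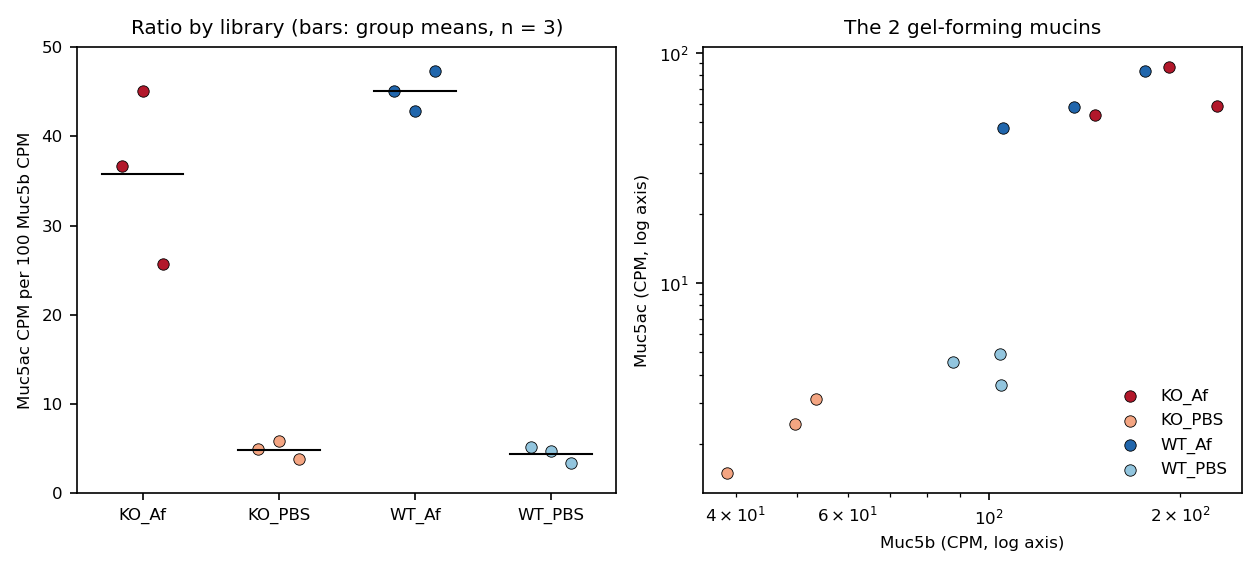
Left, Muc5ac CPM per 100 CPM of Muc5b in each library, with group means as bars (n = 3). Right, Muc5ac against Muc5b in CPM on log axes, 1 point per library. The 6 exposed libraries have ratios of 25.7 to 47.3 and the 6 unexposed ones 3.43 to 5.85.

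The transcription factors were expressed at low levels and, on the log2(CPM + 0.5) scale, rose less than the other tested members in KO lungs. In WT lungs this held against all but Muc5b, whose difference was log2 0.47 ± 0.20. Spdef, an ETS factor needed for goblet cell differentiation, had 7.0, 5.56 and 5.63 CPM in KO_Af lungs, against 1.63, 1.52 and 1.67 CPM in KO_PBS lungs. In WT lungs it had 5.71, 6.09 and 5.35 CPM under Af, against 2.86, 2.47 and 3.59 CPM under PBS. The exposed groups overlapped, and the unexposed KO libraries lay below the unexposed WT libraries. Its rise was log2 1.63 ± 0.15 (limma adjusted p = 4.15e-06) in KO lungs and log2 0.85 ± 0.15 (limma adjusted p = 5.70e-04) in WT lungs. Foxa3, a forkhead factor that promotes mucous differentiation, had 1.61, 1.06 and 1.31 CPM in KO_Af lungs, against 0.320, 0.223 and 0.615 CPM in KO_PBS lungs. In WT lungs it had 1.58, 1.15 and 1.12 CPM under Af, against 0.538, 0.651 and 0.520 CPM under PBS. It was higher under Af in every library, on 6 to 41 reads per library. The rise came to log2 1.06 ± 0.21 (limma adjusted p = 1.05e-03) in KO lungs and log2 0.73 ± 0.21 (limma adjusted p = 0.0114) in WT lungs. At these levels the pseudocount narrows the difference, and edgeR put the KO increase at log2 1.81.

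Of the tested members Clca1 rose most in both genotypes. Clca1, a secreted metalloprotease of goblet cells that acts in the mucus, had 1521, 1431 and 1499 CPM in KO_Af lungs, against 37.1, 2.42 and 6.02 CPM in KO_PBS lungs. It had 1138, 1109 and 1346 CPM in WT_Af lungs, against 6.71, 15.0 and 26.5 CPM in WT_PBS lungs. Exposed levels were even, while unexposed levels spread widely and KO_PBS 9 was the highest of the 6. The increase was log2 7.38 ± 0.72 (limma adjusted p = 7.70e-06) in KO lungs and log2 6.37 ± 0.72 (limma adjusted p = 3.23e-05) in WT lungs. By size of rise Clca1 was 6th of all tested genes in KO lungs and 4th in WT lungs. The KO value depended on the unexposed libraries: it was 8.41 without KO_PBS 9 and 6.57 without KO_PBS 10, and edgeR gave 6.62.

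Agr2, an endoplasmic reticulum protein of the disulfide isomerase family that mucin folding needs, had 134, 50.4 and 72.3 CPM in KO_Af lungs, against 2.10, 2.30 and 4.18 CPM in KO_PBS lungs. It had 38.5, 42.9 and 38.9 CPM in WT_Af lungs, against 3.15, 4.73 and 3.40 CPM in WT_PBS lungs. The highest value was in KO_Af 12, one of the 2 libraries with squamous RNA. KO_Af 12 was also the highest of all libraries for Spdef, Foxa3, Clca1, Itln1, Tff2 and Gcnt3. Within KO_Af it was the lowest for Muc5ac, Muc5b and Fcgbp. Agr2 rose by log2 4.61 ± 0.31 (limma adjusted p = 6.11e-07) in KO lungs and log2 3.27 ± 0.31 (limma adjusted p = 9.61e-06) in WT lungs.

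Itln1, a secreted lectin that binds microbial sugars, had 44.4, 34.4 and 31.9 CPM in KO_Af lungs, against 1.24, 0.780 and 1.19 CPM in KO_PBS lungs. It had 42.1, 30.5 and 30.1 CPM in WT_Af lungs, against 0.538, 0.781 and 1.04 CPM in WT_PBS lungs. The genotypes overlapped at either exposure, and neither exposed group overlapped its unexposed one. The rise of Itln1 was log2 4.57 ± 0.20 in KO lungs and log2 4.76 ± 0.20 in WT lungs, and in WT lungs edgeR gave 5.46. Fcgbp, a mucus protein with von Willebrand factor D domains, had 92.7, 97.2 and 106 CPM in KO_Af lungs, against 10.3, 8.25 and 6.37 CPM in KO_PBS lungs. It had 88.5, 82.5 and 78.3 CPM in WT_Af lungs, against 7.91, 11.5 and 9.49 CPM in WT_PBS lungs. Exposed and unexposed libraries of Fcgbp did not overlap in either genotype, while the unexposed genotypes overlapped. The increase was log2 3.51 ± 0.16 in KO lungs and log2 3.06 ± 0.16 in WT lungs. The limma adjusted p of Itln1 and Fcgbp was at most 2.86e-07 in either genotype.

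Tff2, a trefoil peptide secreted with mucins, had 21.7, 9.15 and 18.1 CPM in KO_Af lungs, against 3.84, 2.45 and 2.64 CPM in KO_PBS lungs. It had 8.97, 7.96 and 11.0 CPM in WT_Af lungs, against 4.88, 5.51 and 2.79 CPM in WT_PBS lungs. Exposed libraries were higher in both genotypes with no overlap. The rise came to log2 2.21 ± 0.31 (limma adjusted p = 9.95e-05) in KO lungs and log2 1.04 ± 0.31 (limma adjusted p = 0.0147) in WT lungs. The WT call was lost without WT_Af 20 (adjusted p = 0.0535) and without WT_PBS 17 (0.0642). Gcnt3, which adds branches to mucin O-glycans, was too low to pass the filter of 1 CPM in 3 libraries. Its reads numbered 17, 5 and 13 in KO_Af lungs, against 2, 1 and 4 in KO_PBS lungs. They numbered 9, 2 and 10 in WT_Af lungs, against 3, 2 and 0 in WT_PBS lungs. The KO groups did not overlap in CPM and the WT groups did. With no filter, over 29525 genes, its difference was log2 0.68 ± 0.21 (limma adjusted p = 0.0262) in KO lungs and 0.44 ± 0.21 (0.145) in WT lungs.

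**Figure D3:**
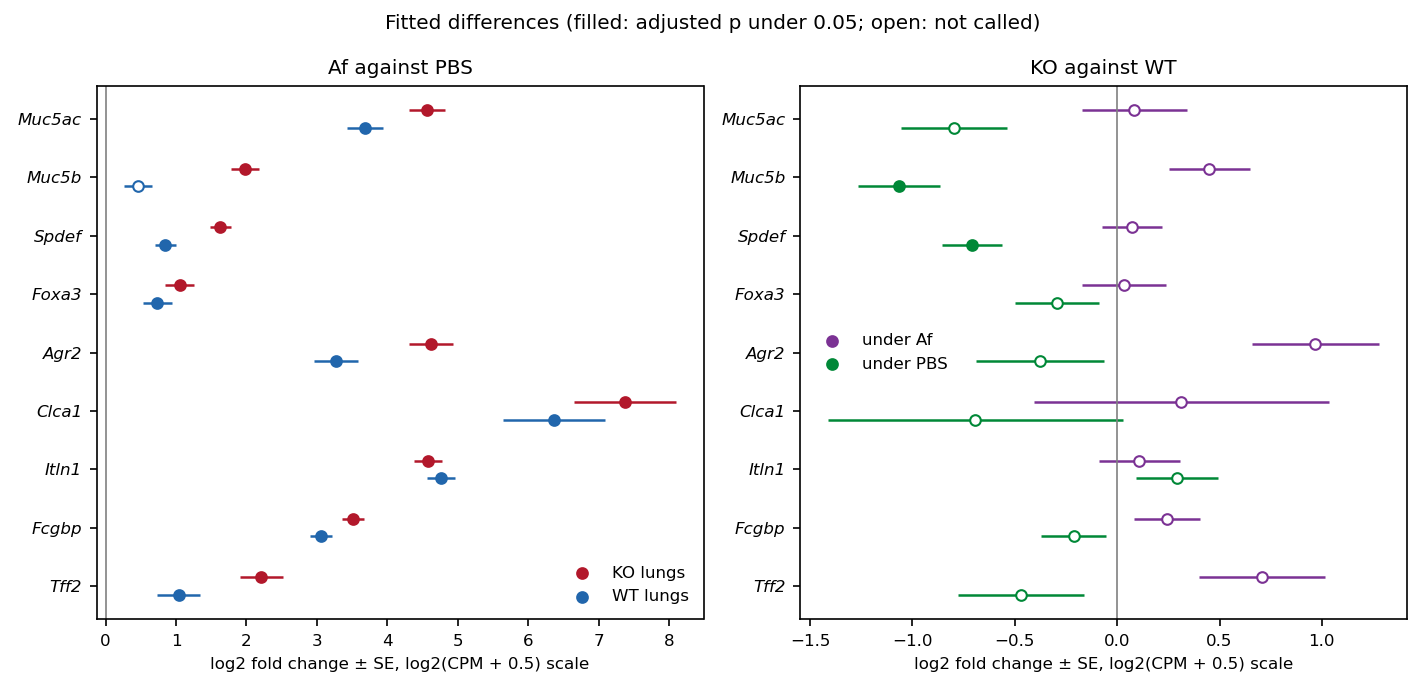
Fitted log2 fold changes with standard errors for the 9 tested members, on the log2(CPM + 0.5) scale. Left, Af against PBS in KO lungs (above) and WT lungs (below). Right, KO against WT under Af (above) and under PBS (below). Filled points have an adjusted p under 0.05. Muc5b in WT lungs (0.47) is the one open point on the left, and Muc5b (-1.07) and Spdef (-0.71) under PBS are the filled points on the right.

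Marker levels of some other cell types moved with exposure too. The summed level of 6 club cell markers was 7114 to 13820 CPM in KO_Af lungs, against 18240 to 20380 CPM in KO_PBS lungs, and 8816 to 9391 CPM in WT_Af lungs, against 15510 to 18580 CPM in WT_PBS lungs. Scgb1a1 makes up most of this sum, and Aldh1a7, on the same list, was called higher under Af in both genotypes. The 7 detected ciliated cell markers also summed lower under Af, at 148 to 170.5 CPM in KO_Af lungs, against 193 to 221 CPM in KO_PBS lungs. In WT lungs they summed to 154 to 166 CPM under Af, against 255 to 271 CPM under PBS. Foxj1, on the ciliated list, did not fall in KO lungs: it averaged 83.2 CPM under Af and 75.9 CPM under PBS and was not called. The sum of 6 pan-epithelial markers was 1097 to 1163 CPM in KO_Af lungs, against 711 to 866 CPM in KO_PBS lungs. It was 934 to 1140 CPM in WT_Af lungs, against 834 to 904 CPM in WT_PBS lungs. Sums of 6 alveolar type 2 markers overlapped between exposures, at 13370 to 21620 CPM in KO_Af and 18400 to 19940 CPM in KO_PBS lungs. They also overlapped in WT lungs, at 14860 to 19980 CPM under Af and 16450 to 27110 CPM under PBS. Sums of 6 basal markers were 26.6 to 81.0 CPM in KO_Af and 11.6 to 13.6 CPM in KO_PBS lungs. In WT lungs the basal sums overlapped, at 16.8 to 62.7 CPM under Af and 11.6 to 71.6 CPM under PBS. The sum of 7 leukocyte markers was 496 to 599.5 CPM in KO_Af lungs, against 383 to 430.0 CPM in KO_PBS lungs, and 503 to 616 CPM in WT_Af lungs, against 255 to 310.2 CPM in WT_PBS lungs. No marker of any list was without reads in every library of a group, except among squamous, gland and gastric markers. The part of these shifts in the rise of the goblet cell genes was not tested.

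Per length of exon, the order of the members changed with exposure. Clca1 led in both exposed groups, with 393 ± 12.5 CPM per kb in KO_Af lungs and 317 ± 34.3 CPM per kb in WT_Af lungs (SD, n = 3). Agr2 came next in KO_Af lungs with 66.4 ± 33.8 CPM per kb and did not overlap Itln1 at 32.3 ± 5.81. In WT_Af lungs Agr2 (31.1 ± 1.85) and Itln1 (30.01 ± 5.99) overlapped. In the unexposed groups Tff2 led, with 5.10 ± 1.29 CPM per kb in KO_PBS lungs and 7.52 ± 2.44 CPM per kb in WT_PBS lungs, and the first 4 places, held by Tff2, Clca1, Muc5b and Agr2, overlapped from each to the next. Muc5b had the higher mean of the gel-forming pair in all 4 groups, although library ranges overlapped in WT_Af lungs: 12.7 ± 2.74 against 6.18 ± 1.64 CPM per kb in KO_Af lungs, and 3.16 ± 0.506 against 0.219 ± 0.0761 in KO_PBS lungs. In WT lungs the values were 9.31 ± 2.38 against 5.86 ± 1.71 under Af, and 6.61 ± 0.639 against 0.404 ± 0.0632 under PBS. Spdef stood in 8th place in both exposed groups, 7th in KO_PBS and 5th in WT_PBS lungs. Foxa3 was in 9th place in every group, and Gcnt3 was last at 0.0163 to 0.108 CPM per kb.

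**Figure D4:**
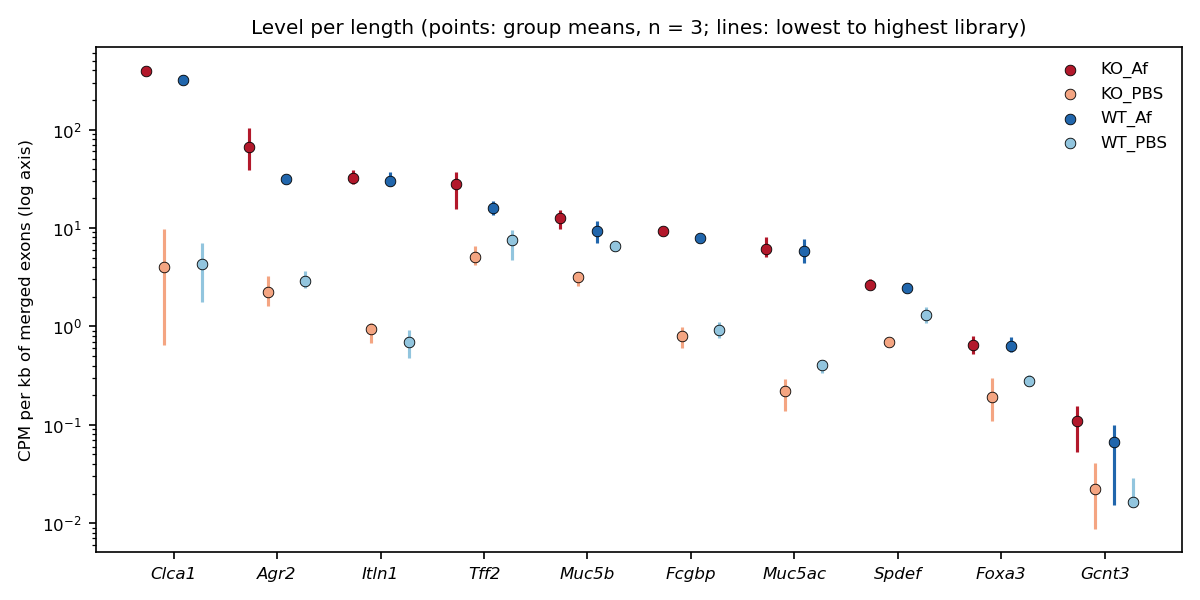
Level per kb of merged exons on a log axis, members ordered by their KO_Af mean. Points are group means (n = 3) and lines run from the lowest to the highest library; the WT_PBS line of Gcnt3 starts at its mean because 1 library had 0 reads. Clca1 stands at 393 and 317 CPM per kb in the exposed groups and near 4 in the unexposed ones.

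Outside the members, the tested genes closest to Muc5ac over the 12 libraries, by Pearson r of log2 values, were Il33 (r = 0.994), Set (0.993), Il2ra (0.992), Farsb (0.992) and Rrp8 (0.991). Those closest to Muc5b were Gfpt2 (0.964), Epha2 (0.963), Sema7a (0.958), Trpv4 (0.957) and Eif3j1 (0.957). Genes with Gm, Rik or clone names and immunoglobulin and T cell receptor segments were left out of both searches. The r values are descriptions, since the libraries share the exposure groups. Trpv4 averaged 12.8 CPM in KO_Af and 3.48 CPM in KO_PBS lungs, and 11.6 CPM in WT_Af and 6.59 CPM in WT_PBS lungs, with the lowest mean in KO_PBS as for Muc5b. The other genes named for Muc5b, and all those named for Muc5ac, also had their lowest mean in KO_PBS. All of them, Trpv4 included, were picked by likeness over these same libraries, so the shared lowest group largely follows from the choice.

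Exposed KO and WT lungs were compared next. None of the 9 tested members was called, where 0.0868% of all tested genes were, and edgeR and DESeq2 called none either (DESeq2 gave Clca1 no adjusted p). All 9 log2 differences were above 0, with a median of 0.24, and 3 members had an unadjusted p under 0.05, where 11.2% of all tested genes did. Agr2 differed by log2 0.97 ± 0.31 (limma adjusted p = 0.350), with all KO_Af libraries above all WT_Af libraries. Without KO_Af 12 its difference was 0.59. Tff2 differed by log2 0.71 ± 0.31 (limma adjusted p = 0.442) and by 0.46 without that library. Muc5b differed by log2 0.45 ± 0.20 (limma adjusted p = 0.446). Clca1 and Fcgbp, like Agr2, were higher in KO_Af with no overlap, which held for 7.66% of all tested genes, and their differences were log2 0.31 ± 0.72 for Clca1 and 0.24 ± 0.16 for Fcgbp (limma adjusted p = 0.880 and 0.560). Muc5ac (0.08 ± 0.26), Spdef (0.07 ± 0.15), Foxa3 (0.03 ± 0.21) and Itln1 (0.11 ± 0.20) were close to 0. Fits that weighted libraries by their quality called Muc5b, Agr2 and Tff2 higher in KO_Af, and also called 2204 genes in all, against 14 without weights.

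Unexposed lungs differed between genotypes in Muc5b and Spdef. Both were lower in KO_PBS, 2 of 9 tested members, where 1.66% of all tested genes were called lower. Muc5b was lower by log2 -1.07 ± 0.20 (limma adjusted p = 0.0154), with a mean CPM 0.478 times that of WT_PBS lungs. Spdef was lower by log2 -0.71 ± 0.15 (limma adjusted p = 0.0240), with a mean CPM 0.541 times that of WT_PBS lungs, where the log2 value includes the pseudocount. In both genes all 3 KO_PBS libraries lay below all 3 WT_PBS libraries, as they did for Muc5ac, and 15.7% of all tested genes showed this. Muc5ac differed by log2 -0.80 ± 0.26 (limma adjusted p = 0.124), and DESeq2 gave 0.0382. The remaining 6 did not pass. Agr2 (-0.38 ± 0.31), Clca1 (-0.69 ± 0.72), Tff2 (-0.47 ± 0.31), Foxa3 (-0.29 ± 0.21) and Fcgbp (-0.21 ± 0.16) were negative, and Itln1 was 0.29 ± 0.20. The Clca1 value was -0.07 with edgeR and changed sign, to 0.12, without KO_PBS 10. The Muc5b call was lost without KO_PBS 9, KO_PBS 11 or WT_PBS 17, with adjusted p of 0.0528 to 0.0703. That of Spdef was lost without any 1 of KO_PBS 9, 10 or 11, WT_PBS 15 or WT_PBS 17, with adjusted p up to 0.107, and with no filter on low genes (0.0775). The ciliated marker sum was also lower in KO_PBS, at 193 to 221 CPM against 255 to 271 CPM in WT_PBS lungs. Of its 7 markers 1 was called, Foxj1, with 75.9 ± 2.72 CPM in KO_PBS and 117 ± 5.55 CPM in WT_PBS lungs, which is most of the gap. The leukocyte sum was higher in KO_PBS, at 383 to 430.0 CPM against 255 to 310.2 CPM in WT_PBS lungs, with 1 of 7 markers called, Ptprc. The club marker sums overlapped narrowly, at 18240 to 20380 CPM against 15510 to 18580 CPM. The part of these levels in the Muc5b and Spdef results was not tested.

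Whether exposure acted differently in the 2 genotypes was tested by the interaction term. No member was called by limma, where 0.0062% of all tested genes were, and 5 had an unadjusted p under 0.05, where 10.9% of all tested genes did. Those were Muc5b, Spdef, Agr2, Tff2 and Muc5ac. The rise of Muc5b was larger in KO than in WT lungs by log2 1.51 ± 0.28 (limma adjusted p = 0.0893, edgeR 0.0903). Spdef differed by 0.78 ± 0.21 (limma adjusted p = 0.183), Agr2 by 1.34 ± 0.44 (0.274), Tff2 by 1.17 ± 0.44 (0.340) and Muc5ac by 0.88 ± 0.36 (0.397). The values were 1.01 ± 1.02 for Clca1, 0.46 ± 0.23 for Fcgbp, 0.33 ± 0.29 for Foxa3 and -0.18 ± 0.28 for Itln1. DESeq2 called Muc5b (adjusted p = 1.25e-04) and Spdef (0.0452). For Muc5b and Spdef this term and the difference between unexposed genotypes both use the KO_PBS and WT_PBS libraries.

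Other genes of the mucous programme were followed in 6 lists, counted against the shares above. Of 6 interleukin 13 axis genes, 5 rose in KO lungs and 4 in WT lungs, with none lower. Il4, Il13 and Il13ra2 met the filter only through the Af libraries, and of the 3 others 2 rose in KO lungs and 1 in WT lungs. Il13 averaged 5.54 ± 4.04 CPM in KO_Af lungs and 0.0598 ± 0.0737 CPM in KO_PBS lungs (SD, n = 3 each), and 6.22 ± 1.40 CPM in WT_Af lungs and 0.0881 ± 0.114 CPM in WT_PBS lungs. Il13ra2, the decoy receptor, averaged 7.33 ± 0.870 CPM in KO_Af lungs and 0.0124 ± 0.0215 CPM in KO_PBS lungs, and 6.22 ± 0.951 CPM in WT_Af lungs and 0.0414 ± 0.0717 CPM in WT_PBS lungs. Both cytokine and decoy were near the floor without exposure. Il4 rose by log2 1.59 ± 0.25 in KO lungs and 1.83 ± 0.25 in WT lungs. Stat6 was the gene that did not pass in either genotype.

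Of 11 other tested goblet cell genes for secreted and endoplasmic reticulum proteins, 8 rose and 1 fell in KO lungs, and 7 rose and 1 fell in WT lungs. Without Ern2 and Retnlb, which met the filter only through the Af libraries, 6 of 9 rose in KO lungs and 5 of 9 in WT lungs. Slc26a4, the anion exchanger pendrin, rose by log2 5.53 ± 0.19 in KO lungs and 5.67 ± 0.19 in WT lungs, to 377 ± 72.2 CPM in KO_Af lungs and 370 ± 31.1 CPM in WT_Af lungs. Retnlb, a secreted resistin-like protein, averaged 9.57 ± 0.603 CPM in KO_Af lungs and 0.0124 ± 0.0215 CPM in KO_PBS lungs, and 5.36 ± 2.08 CPM in WT_Af lungs and 0.0302 ± 0.0262 CPM in WT_PBS lungs. Creb3l1, a factor released from the endoplasmic reticulum membrane, rose by log2 1.16 ± 0.17 in KO lungs and 1.09 ± 0.17 in WT lungs. Tmed3, a cargo protein of the secretory pathway, rose by log2 0.97 ± 0.12 in KO lungs and 0.67 ± 0.12 in WT lungs. The member that fell in both genotypes was Sytl2.

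Of 19 tested mucin O-glycosylation enzymes, 11 rose and 3 fell in KO lungs, and 9 rose and 2 fell in WT lungs. Fut2 met the filter only through the Af libraries and Chst4 only through the PBS libraries. Of the 17 others, 10 rose and 3 fell in KO lungs, and 9 rose and 1 fell in WT lungs. St3gal4, a sialyltransferase, rose by log2 0.98 ± 0.11 in KO lungs and 1.24 ± 0.11 in WT lungs. Galnt6, which starts O-glycan chains, rose by log2 1.38 ± 0.18 in KO lungs and 1.80 ± 0.18 in WT lungs. B4galt1, a galactosyltransferase, rose by 0.92 ± 0.11 in KO lungs and 0.44 ± 0.11 in WT lungs. Galnt7 rose by 0.74 ± 0.10 in KO lungs and 0.57 ± 0.10 in WT lungs, whereas Galnt4 fell, by -0.36 ± 0.07 in KO lungs and -0.50 ± 0.07 in WT lungs.

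Of 4 tested mucins other than the gel-forming pair, 1 rose and 2 fell in KO lungs, and none rose and 2 fell in WT lungs. Muc16 fell by -1.11 ± 0.30 in KO lungs and -0.87 ± 0.30 in WT lungs, and Muc20 by -0.54 ± 0.13 in KO lungs and -0.41 ± 0.13 in WT lungs. Muc4 rose in KO lungs (log2 1.17 ± 0.29) and its WT value was 0.66 ± 0.29 (limma adjusted p = 0.0744). Muc1 was at 359 ± 49.9 CPM in KO_Af lungs and 333 ± 16.4 CPM in KO_PBS lungs, and at 376 ± 11.8 CPM in WT_Af lungs and 348 ± 72.9 CPM in WT_PBS lungs, and was not called.

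Of 13 tested regulators of airway differentiation, 3 rose and 5 fell in KO lungs, and 4 rose and 7 fell in WT lungs. Areg, an EGF receptor ligand, rose by log2 2.87 ± 0.20 in KO lungs and 1.84 ± 0.20 in WT lungs. Sox9 rose by 2.44 ± 0.32 in KO lungs and 2.08 ± 0.32 in WT lungs. Foxa1 fell by -0.71 ± 0.09 in KO lungs and -0.66 ± 0.09 in WT lungs. Foxa2, known in mice to restrain mucous differentiation and named after its value was seen, fell by -0.34 ± 0.13 in KO lungs (limma adjusted p = 0.0452) and -0.39 ± 0.13 in WT lungs (0.0288). Of 11 tested genes of mucin granule release, 6 rose and 3 fell in KO lungs, where 28.7% of all tested genes rose and 29.2% fell. In WT lungs 4 rose and 3 fell, where 26.2% of all tested genes rose and 25.6% fell. The median log2 difference of the 11 was 0.25 in KO lungs and 0.05 in WT lungs. P2ry2, the receptor through which ATP triggers mucin release, rose by log2 1.54 ± 0.16 in KO lungs and 1.42 ± 0.16 in WT lungs. Stxbp3 rose by 0.57 ± 0.07 in KO lungs and 0.35 ± 0.07 in WT lungs.

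Between exposed KO and WT lungs no gene of the 6 lists was called. Between unexposed lungs 3 of the 13 differentiation regulators were lower in KO_PBS, and none of the other 5 lists held a called gene. That count was 1 without KO_PBS 10 or without KO_PBS 11, and 6 with library weights. Foxj1, the master regulator of ciliated cells and the called ciliated marker above, differed by log2 -0.62 ± 0.07, Hes1, a Notch target, by -0.89 ± 0.16 and Egfr, the receptor for Areg, by -0.94 ± 0.19. The interaction called none.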

How the data were processed

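Poly-A RNA of whole lung was prepared with a TruSeq mRNA kit, per the labels' protocols. The submitters' processing notes name cutadapt 1.18, STAR 2.7.6a and RSEM 1.3.0, and 2 builds, GRCh38 and GRCm38, with no role for either. The sources used here do not say whether reads were counted by strand. The authors deposited 1 table of CPM values scaled by TMM, used here as a scaled count signal. All values were whole multiples of 1 read (100% within 0.01), so reads were recovered. Totals were 20708884 to 30229446 reads per library, which limit low genes such as Gcnt3, and 0 reads are given the limit of 3 reads, counting error only. Of 49585 IDs, 99.5% matched the GENCODE annotation of GRCm38, which gave coordinates and exon lengths.

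Tests covered the 16126 genes that reached 1 CPM in 3 or more libraries, on log2(CPM + 0.5) with limma 3.58.1 in R 4.3.3, 1 fit of 4 groups with 8 residual degrees of freedom and a variance trend. P-values were Benjamini-Hochberg adjusted over all tested genes, with a threshold of 0.05. Alternatives were other pseudocounts, filters and scalings, library weights, fits of the compared groups alone, each library left out, both libraries with squamous RNA left out, and edgeR 4.0.16 and DESeq2 1.42.0 on the recovered reads. Replicates differed beyond sampling noise. The scripts were tested on simulated data.

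Every tested member is named in every comparison, and Gcnt3, which did not pass the filter, only for Af against PBS. The 5 genes most like Muc5ac and the 5 most like Muc5b are named. Genes with Gm, Rik or clone names and immunoglobulin and T cell receptor segments were left out of that search. From each list up to 3 genes with the smallest p among those called are named. Listed genes whose symbol had 2 IDs (Itgam, St6galnac2) were left out, and 1 further gene that this rule names is not reported here. The members and lists were chosen with earlier results of these data known.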

Additional observations from a re-analysis of the deposited data

Results flagged for a closer look

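For Muc5b and Spdef, the rise under Af differed between KO and WT lungs by the interaction test of DESeq2 on the recovered reads. The interaction of Muc5b was log2 1.514 (DESeq2 adjusted p = 1.25e-04), with limma at 1.51 ± 0.28 (adjusted p = 0.0893) and edgeR at 1.5 (adjusted p = 0.0903). Its limma call was gained without KO_Af 12 (log2 1.69, adjusted p = 0.0390). The interaction of Spdef was log2 0.9742 (DESeq2 adjusted p = 0.0452), with limma at 0.78 ± 0.21 (adjusted p = 0.183) and edgeR at 0.96 (adjusted p = 0.165). Both genes had their lowest levels in KO_PBS lungs, and their KO_Af and WT_Af libraries overlapped.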

How the results depend on the processing

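The 9 members that rose under Af in KO lungs kept their calls in every alternative that gave them an adjusted p. Library weights moved counts most: members called were 3 higher (KO against WT under Af), 4 lower (under PBS) and 4 higher (interaction), and all genes called were 2204, 2646 and 1602. Other counts of members that moved by more than 1.5 times were 1 lower under PBS with no filter and 2 higher for the interaction with DESeq2. Within that margin, DESeq2 called 3 lower under PBS, and edgeR and library weights called 9 higher under Af in WT lungs. Leaving out 1 library gave 0 to 2 members lower under PBS and 0 to 1 higher for the interaction. Of all genes, KO against WT under Af called 14, and 9 with the stricter filter, 3 with the compared groups alone, 189 with DESeq2 and 3 to 110 with 1 library left out. Under PBS 573 were called, and 373 with no filter, 1124 with the compared groups alone, 1216 with DESeq2 and 131 to 430 with 1 library left out. The interaction called 1, and 2 with a pseudocount of 1, 0 with no filter, the stricter filter or no variance trend, 5 with median-of-ratios scaling, 366 with DESeq2 and 0 to 187 with 1 library left out.

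Differences near 0 changed sign, and so did that of Clca1 under PBS. KO against WT under Af, library weights gave -0.0054 for Muc5ac and -0.051 for Spdef, and without WT_PBS 17 and KO_Af 12 Spdef was -0.0275, Foxa3 -0.0781 and Itln1 -0.0305. With 1 library left out, Muc5ac ran from -0.12 to 0.30, Spdef from -0.03 to 0.13, Foxa3 from -0.08 to 0.15 and Itln1 from -0.03 to 0.27. Clca1 under PBS, at -0.69 in the main fit and -0.07 with edgeR, ran from -1.73 to 0.12. The KO minus WT log2 ratio of Muc5ac to Muc5b ran from -0.141 to 0.0606. The cause was not tested. No paired analysis was possible because the sample numbers are unique to each library and pair none across groups.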

Other observations

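Over all 12 libraries the 36 pairs of the 9 tested members had Pearson r of log2 values from 0.746 to 0.987, with a median of 0.906, and the exposure groups are shared by every pair. After each group's mean was taken off, r ran from -0.81 to 0.76 with a median of 0.09. Muc5ac and Muc5b had a within-group r of 0.673, and Foxa3 and Agr2 one of 0.763. Muc5ac and Foxa3 had the lowest, -0.81, against 0.873 over all libraries. Each within-group value rests on 12 libraries in 4 groups of 3.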
